A study of Caenorhabditis elegans with 12 samples.

Results

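The genes of the mitochondrial ribosomal proteins were taken as all genes whose WormBase symbol begins with mrpl- (large subunit) or mrps- (small subunit). The annotation names 70 such genes, 41 mrpl- and 29 mrps-, and 69 of them were found by gene identifier among the 46920 loci of the count table. The gene not found was mrpl-42. All 69 passed the filter on low counts and were among the 14867 genes tested. RNA was measured by poly(A)-selected RNA sequencing of whole L4 larvae in 4 groups of 3 libraries. The groups were lin-40(yth27) animals on cco-1 RNAi, lin-40(yth27) animals on empty vector (EV), WT (N2) animals on cco-1 RNAi and WT animals on EV. All animals were fed their bacteria from hatch at 20ºC, and the cco-1 RNAi food is labelled EV+cco-1. lin-40(yth27) is a single missense allele of LIN-40, a metastasis-associated (MTA) subunit of the nucleosome remodeling and deacetylase (NuRD) complex, so the genotype comparison rests on 1 strain. The study describes its replicates as biological, but the labels do not say whether the libraries of a group came from separate cultures, so p-values measure the spread between these libraries, which may be technical.

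The mitochondrial ribosome translates the few proteins encoded by mitochondrial DNA, all of which are subunits of the respiratory chain and the ATP synthase. Its ribosomal RNAs come from the mitochondrial genome, but its proteins are encoded in the nucleus, made in the cytosol and imported. cco-1 encodes a nuclear subunit of cytochrome c oxidase, the complex whose core subunits this ribosome makes, and its knockdown in larvae is a standard way to induce the mitochondrial unfolded protein response (UPRmt) in C. elegans. Knockdown of mrps-5 is itself known to induce this response and to extend worm lifespan. The subunit names are not a strict guide to position, since the human proteins MRPS30 and MRPS18A sit in the large subunit.

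The library totals lay between 18553449 and 22538076 counts, and replicates differed by more than counting noise. The transcript targeted by RNAi, listed as cox-5B, averaged 219 ± 40.5 counts per 1000000 counts (CPM) in lin-40(yth27) animals on cco-1 RNAi and 416 ± 8.35 CPM on EV. In WT it averaged 160 ± 28.7 CPM on cco-1 RNAi and 494 ± 21.5 CPM on EV (SD, n = 3 each). The lin-40 transcript was present in all libraries, and a missense allele cannot be checked by its level. Markers of germline, intestine, muscle, neurons and hypodermis were detected in every library. The replicate 3 library of lin-40(yth27) on cco-1 RNAi stood apart in one respect that touches the results below. Taken as log2 deviations from each gene's mean over the 12 libraries, its levels declined with exon length more than in any other library. The slope of these deviations on log2 exon length was −0.21, against −0.089 to 0.14 in the other 11 libraries.

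The level of the 69 transcripts was moderate and fairly even. Per kilobase of exon, the mean over the 12 libraries ran between 6.21 CPM for mrpl-23 and 154 CPM for mrpl-44, with a median of 41.3 CPM per kb and the middle 50% of genes between 32.7 and 56.3. The coefficient of variation between replicates had a median of 10.5% over the 69 genes, against 12.3% over 4216 tested genes of like abundance. Both ends of the order are special cases. The gene mrpl-44 (III:9084310-9089375, minus strand) encloses mccc-2, which encodes a subunit of methylcrotonyl-CoA carboxylase. mccc-2 has no row in the count table, so reads of mccc-2 may have been counted for mrpl-44. In the annotation used here, exons of the 2 genes share only 166 bases, 9.4% of the mrpl-44 exon length. The next gene in the order was mrpl-12, at 109 CPM per kb, which encodes the protein of the ribosomal stalk. The gene mrpl-23 (I:6211270-6211885, minus strand) averaged only 3.56 CPM and lies between ech-1.2 and fars-1, which averaged 230 and 140 CPM. Its replicates varied by 53.6%, and it gave the highest fold change of all members in WT upon cco-1 RNAi without passing the test (log2 fold change 0.89, SE 0.61, edgeR adjusted p = 0.452). Just above it stood mrps-31, at 6.45 CPM per kb with a replicate variation of 25.1%. In 64 of the 68 pairs of neighbours in this order the difference was under the larger of their replicate SDs. The exceptions were mrpl-44 over mrpl-12, mrps-14 over mrps-12, mrpl-24 over mrpl-1 and mrpl-1 over mrps-31.

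**Figure D1:**
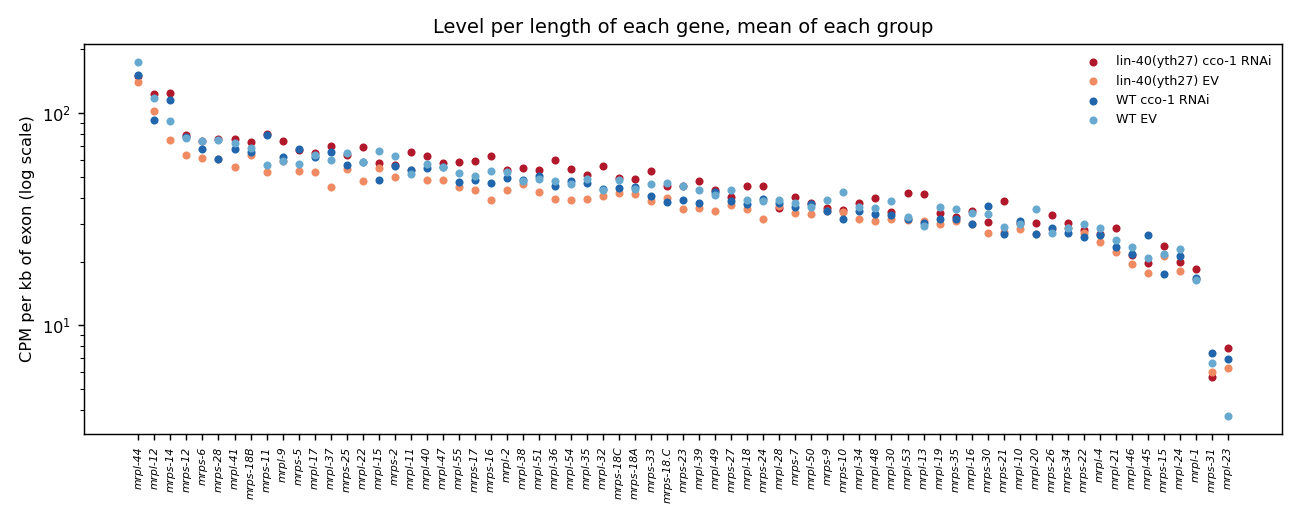
Level of each of the 69 genes in CPM per kb of exon on a log axis, ordered by the mean over 12 libraries, with 1 point for the mean of each group. Most genes lie between 20 and 80 CPM per kb, mrpl-44 is highest and mrps-31 and mrpl-23 lie well below the rest.

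The genes were spread over the autosomes, with 15 on chromosome I, 12 on II, 22 on III, 11 on IV and 10 on V, and none on X. Many had a close neighbour on the same strand, as genes of C. elegans operons do. Of the 70 genes, 31 (44.3%) had a coding neighbour within 150 bases on the same strand on either side, against 14.5% of all 19973 protein-coding genes and 18.1% of those tested. For 19 genes (27.1%) this neighbour lay upstream, against 7.91% of all coding genes. Only 1 pair of members was adjacent, mrps-2 and mrpl-4, with 105 bases between them on chromosome V. Exons were short, with a median total of 763 bases (309 to 2164), against 1365 bases over all genes tested.

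The first question was whether cco-1 RNAi changed these transcripts in WT animals. As a group they did not move far: the median log2 fold change was −0.07, 24 of 69 lay above 0 (56.0% of all genes did), and only mrps-11 passed the test (BH-adjusted p under 0.05 over all genes in edgeR's quasi-likelihood test). That is 1 of 69 higher and 0 lower, in a comparison where 2.17% of all genes were called higher and 4.08% lower. The median over all genes was 0.06. The count above 0 was 9 without WT EV replicate 2, 11 without WT cco-1 RNAi replicate 1 and 47 with library totals in place of TMM (trimmed mean of M values) scaling, which also turned the sign of the median (0.06, with 0.19 over all genes). With the libraries paired by replicate number, mrps-11 was still the 1 member called, and 509 genes in all were called higher and 740 lower. mrps-11 (WBGene00012244, V:12493239-12494622, minus strand) encodes a small-subunit protein related to bacterial S11. It measured 63.4, 56.8 and 60.2 CPM in WT on cco-1 RNAi, against 39.7, 44.3 and 46.6 CPM in WT on EV. Every cco-1 RNAi library was above every EV library, and the log2 fold change was 0.47 (SE 0.12, edgeR adjusted p = 0.0455). The call lies at the threshold: with any single WT library or any lin-40(yth27) EV library left out, the adjusted p was above 0.05 (0.065 to 0.136), as it was with lin-40(yth27) cco-1 RNAi replicate 1 left out (0.0547).

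The other genes with the lowest p in WT were lower on cco-1 RNAi and did not pass the test. mrpl-15, a large-subunit protein related to bacterial L15, measured 56.1, 45.9 and 48.5 CPM in WT on cco-1 RNAi, against 79.8, 58.6 and 67.6 CPM on EV, a log2 fold change of −0.45 (SE 0.14, edgeR adjusted p = 0.0898). The groups did not overlap, although the highest cco-1 RNAi value was close to the lowest EV value. mrps-10 had a log2 fold change of −0.42 and mrpl-20 of −0.39. mrps-14 was the other gene above EV in all libraries, at 94.7, 75.5 and 85.2 CPM on cco-1 RNAi, against 73.3, 64.3 and 65.9 CPM on EV (log2 fold change 0.33, edgeR adjusted p = 0.226). Over the 69 genes, the groups did not overlap for 2 higher and 8 lower genes, or 2.9% and 11.6%, against 11% and 13.3% of all genes. mrps-5, whose knockdown is the best-known mitoribosomal perturbation in the worm, measured 119, 87.2 and 94.3 CPM in WT on cco-1 RNAi, against 90.7, 75.3 and 89.4 CPM on EV. These ranges overlapped (log2 fold change 0.23, SE 0.13, edgeR adjusted p = 0.343).

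**Figure D2:**
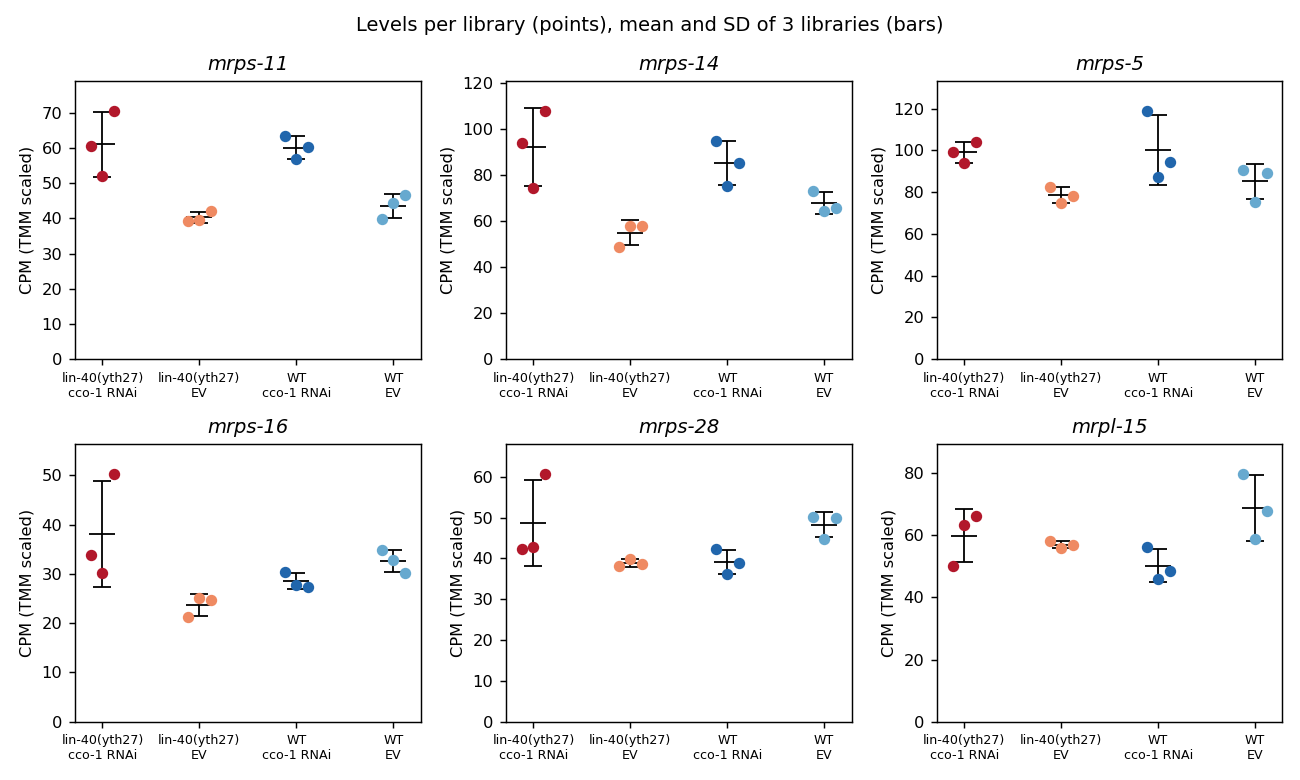
Levels in CPM of 6 genes in each library (points), with the mean and SD of 3 libraries (bars), for lin-40(yth27) on cco-1 RNAi, lin-40(yth27) on EV, WT on cco-1 RNAi and WT on EV. mrps-11 is higher on cco-1 RNAi in both genotypes, at 52.2 to 70.6 against 39.2 to 42.0 CPM in lin-40(yth27) and 56.8 to 63.4 against 39.7 to 46.6 CPM in WT, while all cco-1 RNAi values of mrps-28 lie above EV in lin-40(yth27) and below EV in WT.

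The same question was asked in lin-40(yth27) animals, where nearly all of these transcripts had a positive fold change upon cco-1 RNAi. Their median was 0.27 on the log2 scale, and 67 of 69 genes lay above 0, against 45.8% of all genes, whose median was −0.03. For 36 genes (52.2%) all 3 cco-1 RNAi libraries were above all 3 EV libraries, against 11.1% of all genes, and for none were they all below (9.71% of all genes). At an unadjusted p under 0.05 stood 26 members, all higher (37.7%), against 7.24% of all genes. This count was 10 without lin-40(yth27) cco-1 RNAi replicate 3, 15 without lin-40(yth27) EV replicate 1, 8 with library totals and 7 with the length trend of each library removed. Counted in either direction, it was 38 without lin-40(yth27) cco-1 RNAi replicate 1. It was 29 with libraries paired by replicate number and 14 with this pairing and the length trend removed. With library totals 52 members lay above 0. Few single genes passed the test: 2 were called higher and 0 lower, where 0.827% of all genes were called higher and 0.336% lower. Both called genes belong to the small subunit.

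mrps-14 (WBGene00011334, II:10240277-10242490, minus strand) encodes a protein related to bacterial S14. It measured 94.1, 74.6 and 108 CPM in lin-40(yth27) animals on cco-1 RNAi, against 48.9, 58.1 and 58.0 CPM in lin-40(yth27) on EV. The groups did not overlap, and the log2 fold change was 0.74 (SE 0.15, edgeR adjusted p = 0.0361). mrps-11 measured 60.5, 52.2 and 70.6 CPM on cco-1 RNAi, against 39.2, 39.6 and 42.0 CPM on EV in this genotype, again without overlap (log2 fold change 0.60, SE 0.12, edgeR adjusted p = 0.0419). Neither call survived leaving out the replicate 3 library described above, without which mrps-14 had a log2 fold change of 0.62 (edgeR adjusted p = 0.135) and mrps-11 of 0.49 (0.105). Both were also lost without any 1 of the lin-40(yth27) EV libraries (0.129 to 0.198), without lin-40(yth27) cco-1 RNAi replicate 1 (0.102 and 0.0949), and without WT EV replicate 2 or 3 or WT cco-1 RNAi replicate 3 (0.0556 to 0.0704). mrps-11 alone was lost without WT cco-1 RNAi replicate 2 (0.0563).

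The 4 genes next in p had positive fold changes and did not pass the test. mrps-16, related to bacterial S16, measured 33.8, 30.1 and 50.4 CPM in lin-40(yth27) animals on cco-1 RNAi, against 21.2, 25.1 and 24.8 CPM on EV (log2 fold change 0.68, edgeR adjusted p = 0.108). Its exons share 27.8% of their length with ilcr-2 on the same strand, so its counts are less certain. mrpl-32 had a log2 fold change of 0.46, mrpl-35 of 0.38 and mrps-24 of 0.51. The product of mrpl-32 is known from yeast and mouse as a ribosomal protein that is matured by the mitochondrial m-AAA protease. mrps-5 measured 99.4, 93.8 and 104 CPM on cco-1 RNAi, against 82.4, 74.9 and 78.4 CPM on EV (log2 fold change 0.33, SE 0.13, edgeR adjusted p = 0.326). Its lin-40(yth27) groups did not overlap, whereas its WT groups did.

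**Figure D3:**
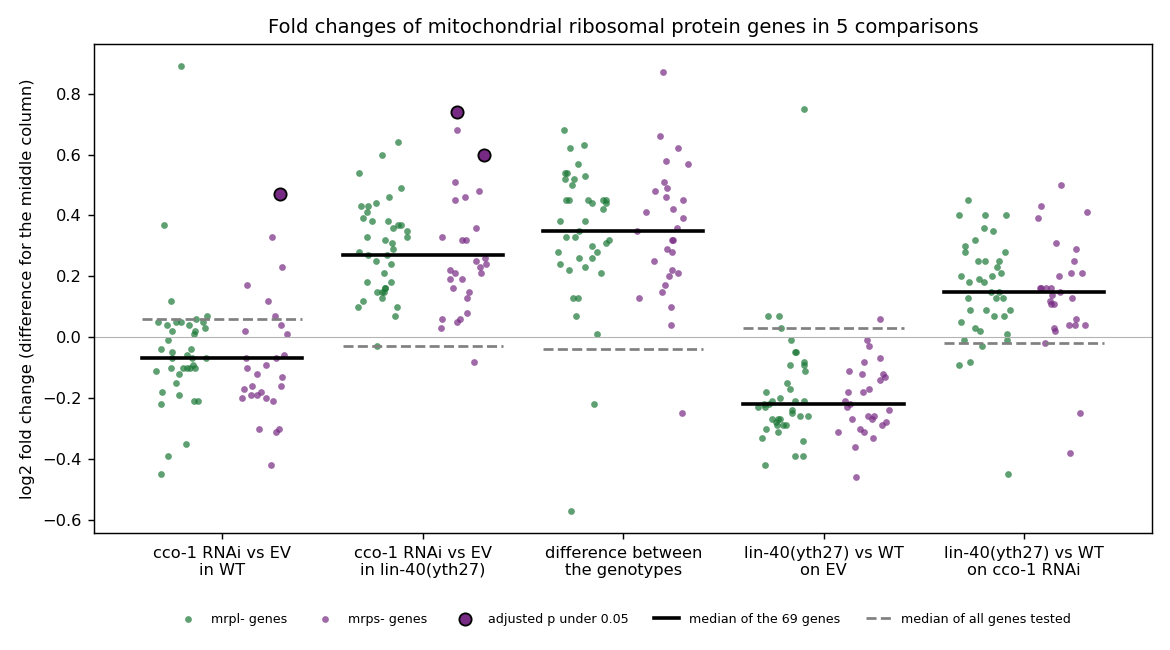
Log2 fold change of each of the 69 genes in 5 comparisons, mrpl- genes on the left (green) and mrps- genes on the right (purple) of each column, with the median of the 69 genes (solid line) and of all genes tested (dashed line). The solid line lies at −0.07, 0.27, 0.35, −0.22 and 0.15, and the outlined points are the genes that passed the test, mrps-11 in WT and mrps-14 and mrps-11 in lin-40(yth27).

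The size of this group-wide value depended on the replicate 3 library and on exon length. The summed level of the 69 genes was 2740, 2920 and 3360 CPM in lin-40(yth27) animals on cco-1 RNAi replicates 1, 2 and 3, against 2480, 2500 and 2470 CPM in lin-40(yth27) on EV. Replicate 3 was the highest of the 12 libraries, and replicates 1 and 2 were still above all 3 EV libraries of the genotype. Without replicate 3 the median log2 fold change was 0.18 and no gene was called. The 35 members of up to 763 bases had a median of 0.37 and the 34 longer ones of 0.16. All genes of up to 763 bases had a median of 0.21 and all longer genes of −0.07. These 2 sets were not limited to the members' range of 309 to 2164 bases, so they are not matched to the members by length. With the length trend of each library removed, an alternative added after the data were seen, the medians were 0.21 and 0.19 for the shorter and the longer members, and 0 genes were called. mrps-14 then had a log2 fold change of 0.64 (edgeR adjusted p = 0.208) and mrps-11 of 0.51 (0.157).

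**Figure D4:**
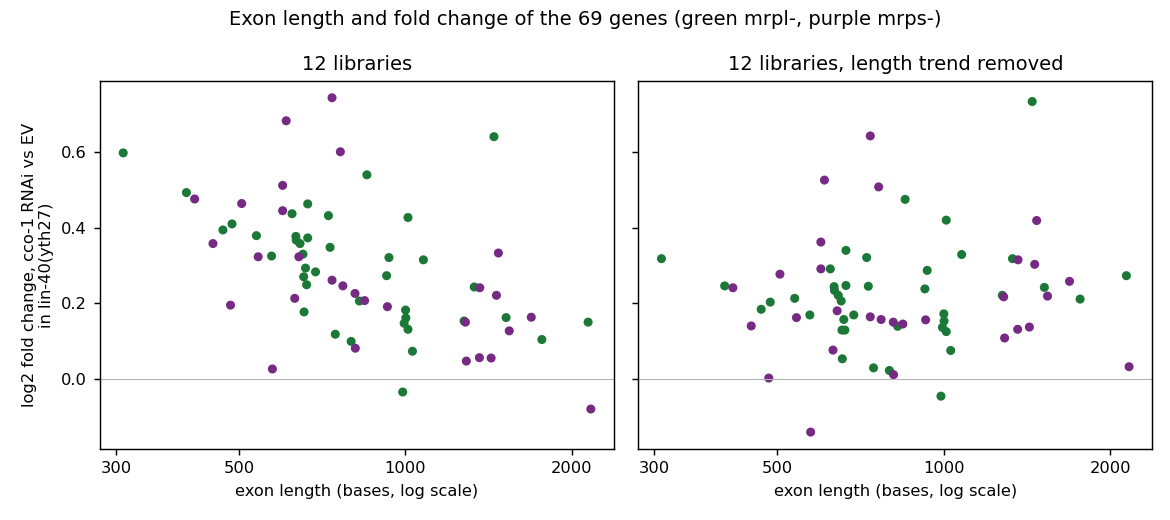
Log2 fold change upon cco-1 RNAi in lin-40(yth27) against total exon length in bases (log axis) for the 69 genes, from the 12 libraries as deposited (left) and with the length trend of each library removed (right). On the left the shorter genes lie higher, with a median of 0.37 against 0.16 for the longer ones, and on the right both medians are near 0.20, at 0.21 and 0.19.

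Whether the response differed between the genotypes was tested by the interaction of genotype and bacteria. The difference, lin-40(yth27) minus WT, had a median of 0.35 over the 69 genes and −0.04 over all genes, and 66 of 69 members had a positive value, against 47.4% of all genes. With library totals the count was 44 and the median 0.06, with −0.31 over all genes. No member and no other gene passed the adjusted threshold in edgeR (0% called). At an unadjusted p under 0.05 stood 20 members, all with a positive difference (29.0%), against 6.84% of all genes. This count rested on single libraries and on the scaling. It was 4 without lin-40(yth27) cco-1 RNAi replicate 3, 10 without WT EV replicate 3, WT cco-1 RNAi replicate 2 or lin-40(yth27) EV replicate 1, and 11 without WT EV replicate 1. It was 31 without lin-40(yth27) cco-1 RNAi replicate 1, and 1 with library totals or with the length trend removed. Counted in either direction, it was 25 with libraries paired by replicate number and 16 with this pairing and the length trend removed. DESeq2 called 0 members, but gave an adjusted p for 23 of the 69, and called 43 genes in all. With replicates blocked by the number in the short names, 12 members were called higher among 453 genes higher and 570 lower. In WT these numbers gave the same pairs as the title numbers. In lin-40(yth27) they were not shown to pair the libraries. Only the numbers 2 and 4 occurred there on both foods (correlations of deviations 0.29 and −0.113), so the other libraries of this genotype did not enter its contrast. The 4 lowest p belonged to mrps-16 (0.87, SE 0.24, edgeR adjusted p = 0.394), mrps-28 (0.62), mrpl-35 (0.45) and mrpl-39 (0.63), the last being a large-subunit protein with no bacterial counterpart. In WT, mrps-16 measured 30.5, 27.8 and 27.4 CPM on cco-1 RNAi, against 34.8, 32.8 and 30.3 CPM on EV, ranges that overlapped only between 30.3 and 30.5 CPM. Without the replicate 3 library the median difference was 0.26. The shorter members, of up to 763 bases, had a median difference of 0.45 and the longer ones of 0.25. All genes of up to 763 bases had a median of 0.25 and all longer genes of −0.08, sets not otherwise matched in length. With the length trend removed the shorter members had a median of 0.33 and the longer ones of 0.29, with 0.06 over all genes.

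Compared on EV, lin-40(yth27) had lower values than WT for most members. The median log2 fold change was −0.22, against 0.03 over all genes, and 5 of 69 genes lay above 0, against 53.7% of all genes. For 28 genes (40.6%) all lin-40(yth27) libraries were below all WT libraries, against 13.1% of all genes. No member passed the test in edgeR, where 0.377% of all genes did, and 12 members (17.4%) had an unadjusted p under 0.05 and a negative value, against 7.43% of all genes. This count was 2 without lin-40(yth27) EV replicate 1, 5 without WT EV replicate 1 or 3, 7 without lin-40(yth27) EV replicate 3, 19 without WT EV replicate 2, and 1 with library totals. Counted in either direction, it was 23 with the length trend of each library removed, where 1 member lay above 0. DESeq2 called 0 members. With the libraries paired by replicate number 0 members and 9 genes in all were called, against 56 genes without pairing. Under this pairing 6 members had an unadjusted p under 0.05, and 9 with the length trend also removed. The lowest p belonged to mrps-2, related to bacterial S2, at 45.3, 45.8 and 48.2 CPM in lin-40(yth27) on EV, against 58.6, 54.8 and 61.5 CPM in WT on EV (log2 fold change −0.33, SE 0.11, edgeR adjusted p = 0.206). The groups did not overlap. mrpl-35 followed at −0.31, mrps-16 at −0.46 and mrpl-30 at −0.28.

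On cco-1 RNAi the median member lay slightly higher in lin-40(yth27) than in WT, and the counts of single genes were near those of all genes. The median was 0.15, against −0.02 over all genes, and 60 of 69 genes lay above 0, against 48.3% of all genes. No member passed the test in edgeR or DESeq2, where 0.626% of all genes did in edgeR, and 8 had an unadjusted p under 0.05 (11.6%, against 9.91% of all genes). This count was 0 without lin-40(yth27) cco-1 RNAi replicate 3 or WT cco-1 RNAi replicate 2, 3 without WT cco-1 RNAi replicate 3 and 21 without lin-40(yth27) cco-1 RNAi replicate 1. The groups did not overlap for 8 higher genes, which is 11.6%, against 9.85% of all genes. The lowest p belonged to mrpl-13, at 24.9, 27.3 and 38.7 CPM in lin-40(yth27) animals on cco-1 RNAi, against 23.4, 19.9 and 23.1 CPM in WT on cco-1 RNAi (log2 fold change 0.45, edgeR adjusted p = 0.222). mrpl-32 (0.36), mrpl-53 (0.40) and mrps-15 (0.43) followed. The shorter members, of up to 763 bases, had a median of 0.20, close to the 0.18 of all genes of up to 763 bases. The longer members had 0.09, against −0.05 for all longer genes. Without the replicate 3 library the median of the 69 genes was 0.03. With the length trend removed it was −0.01, with 33 of 69 genes above 0. With library totals the median was also −0.01. The comparisons share libraries, so the 5 medians are not independent of each other.

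**Figure D5:**
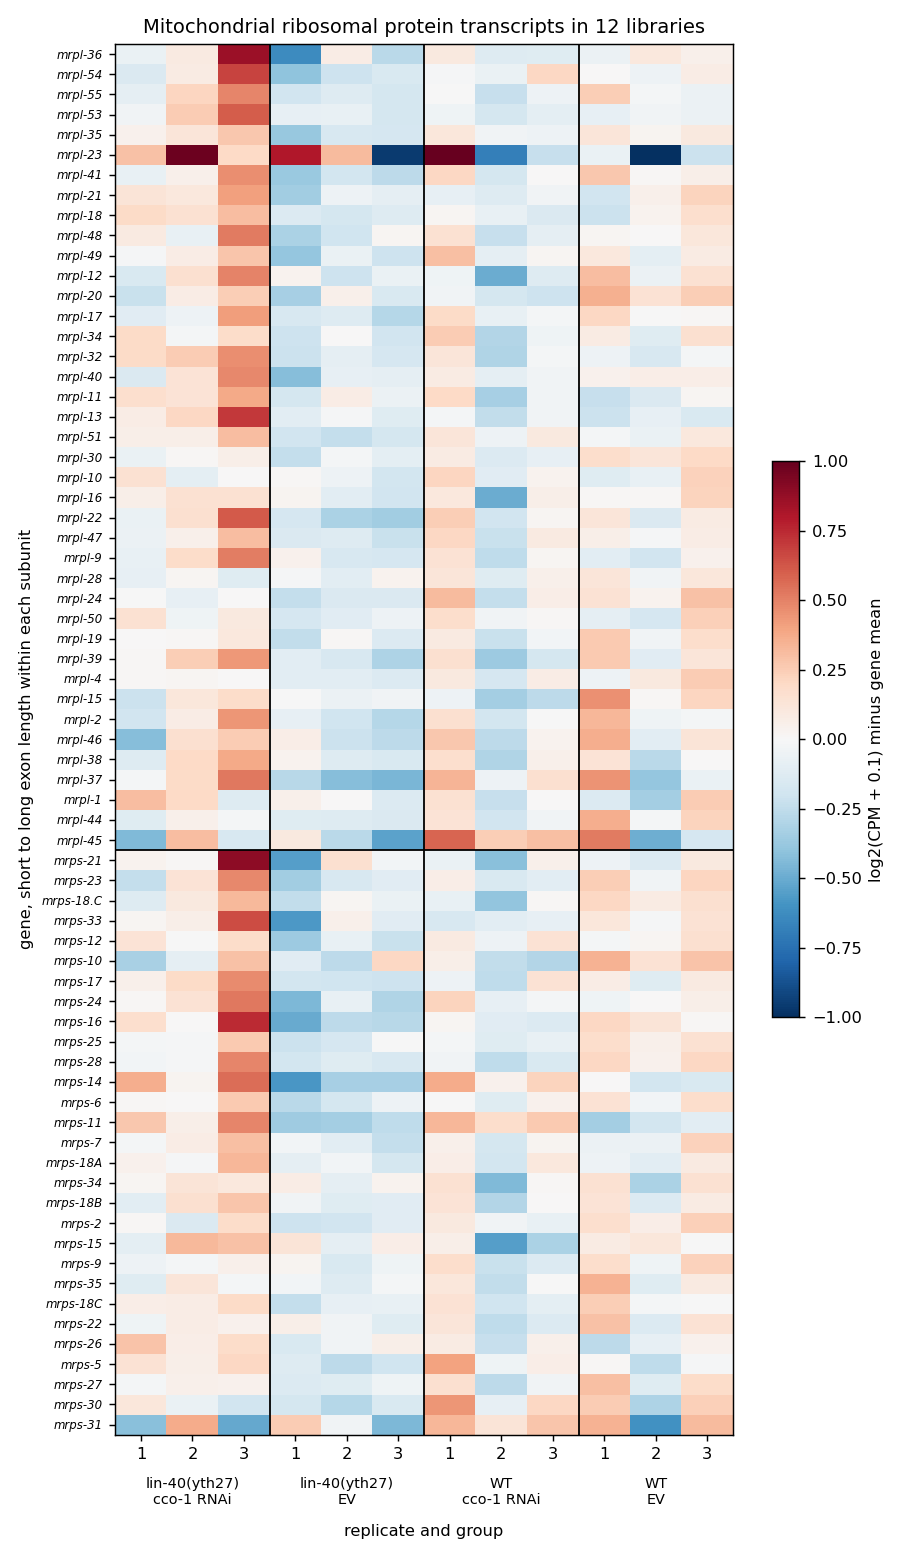
Log2(CPM + 0.1) of the 69 genes minus each gene's mean over 12 libraries (red higher, blue lower), with libraries in columns by group and genes in rows, mrpl- above mrps- and short to long exon length within each. The lin-40(yth27) EV libraries are mostly blue and the replicate 3 library of lin-40(yth27) on cco-1 RNAi is the reddest, with a median deviation of 0.29 against −0.18 to 0.12 in the other libraries. CPM are TMM-scaled, and this replicate 3 library had the lowest TMM factor (0.796).

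Seen library by library, the median deviation of the 69 genes from their means was −0.01, 0.07 and 0.29 (log2) in lin-40(yth27) animals on cco-1 RNAi and −0.17, −0.12 and −0.15 in lin-40(yth27) on EV. It was 0.12, −0.18 and 0.00 in WT on cco-1 RNAi and 0.12, −0.04 and 0.11 in WT on EV. The WT libraries thus covered much of the range, with replicate 2 low on both kinds of bacteria, while the lin-40(yth27) EV libraries lay close together. The subunits had similar medians: in lin-40(yth27) the median log2 fold change was 0.30 for the 40 mrpl- genes and 0.23 for the 29 mrps- genes, and in WT it was −0.06 and −0.12. The subunits were also compared by the log2 ratio of summed mrps- to summed mrpl- levels, each gene taken as CPM per kb of exon. It was −0.429 ± 0.074 in lin-40(yth27) animals on cco-1 RNAi and −0.449 ± 0.056 on EV, a difference of 0.02 (exact two-sided permutation test, p = 0.6). In WT it was −0.410 ± 0.032 on cco-1 RNAi and −0.444 ± 0.023 on EV, a difference of 0.034 (exact p = 0.3, SD, n = 3 each). With 3 against 3 libraries this test cannot give a p under 0.1.

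Genes that work beside the mitochondrial ribosome gave other values. In a list of 22 factors for mitochondrial transcription, tRNA charging and translation, 21 were tested, and 4 were called higher and 0 lower in WT upon cco-1 RNAi, with a median of 0.33. These were tsfm-1 (0.52), the mitochondrial translation elongation factor Ts, nars-2 (0.45), an asparaginyl-tRNA synthetase, rpom-1 (0.54), the mitochondrial RNA polymerase, and tfbm-1 (0.73), related to mitochondrial transcription factor B. In lin-40(yth27) 2 were called higher (9.52%, against 0.827% of all genes), tsfm-1 (0.93) and nars-2 (0.64), and the median was 0.09. For 9 of the 21 (42.9%) all cco-1 RNAi libraries were above all EV libraries there, against 52.2% of the members and 11.1% of all genes. At an unadjusted p under 0.05 and higher stood 28.6% of the list, 37.7% of the members and 7.24% of all genes. tsfm-1 averaged 122 ± 10.3 CPM on cco-1 RNAi and 63.8 ± 5.83 CPM on EV in lin-40(yth27), and 120 ± 15.3 CPM on cco-1 RNAi and 84.2 ± 4.26 CPM on EV in WT (SD, n = 3 each). dap-3, the worm counterpart of the small-subunit protein MRPS29 and outside the symbol rule, had log2 fold changes of 0.00 in WT and 0.32 in lin-40(yth27) (edgeR adjusted p = 0.997 and 0.270).

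Of 13 UPRmt genes, 1 was called higher in each genotype, the chaperone gene dnj-10 in WT (0.71) and timm-23, a subunit of the inner membrane translocase, in lin-40(yth27) (0.94). That is 7.69% of the list in each genotype, against 2.17% of all genes called higher in WT and 0.827% in lin-40(yth27). The medians of this list were 0.29 in WT and 0.20 in lin-40(yth27). The 2 ribosomal RNAs of the mitochondrial genome, which are depleted by poly(A) selection, had log2 fold changes of 0.66 and 0.76 in lin-40(yth27) upon cco-1 RNAi, and neither was called. The 12 protein-coding genes of the mitochondrial genome had a median of 0.57 in this comparison with 1 called higher, and −0.33 in WT with 0 called.

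Cytosolic ribosomal protein genes (rpl- and rps-) had medians with the same signs in the 5 comparisons. For 78 genes the median was −0.19 in WT, 0.38 in lin-40(yth27), 0.56 for the interaction, −0.13 for the genotypes on EV and 0.43 on cco-1 RNAi, and none was called in any of them. Their summed level was 140000, 164000 and 244000 CPM in lin-40(yth27) animals on cco-1 RNAi, against 141000 to 144000 CPM on EV, so that here too replicate 3 stood highest, and replicate 1 did not exceed EV.

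Markers of stage and tissue moved in the same libraries, and in whole animals fewer cells of a type cannot be told apart from less RNA per cell. Of 9 hypodermal and molting genes, 5 were called lower in WT upon cco-1 RNAi (median −1.14), with sums of 1520 to 2320 CPM on cco-1 RNAi and 3040 to 4320 CPM on EV. In lin-40(yth27) their median was −0.39 and none was called. The 6 yolk genes summed to 620 to 2270 CPM in lin-40(yth27) animals on cco-1 RNAi, against 6260 to 8980 CPM on EV, with a median log2 fold change of −3.04 and 0 called. In WT they summed to 98.2 to 3530 CPM on cco-1 RNAi and 673 to 3890 CPM on EV. The sperm (msp-) genes, which mark the L4 germ line, summed to 1380 to 2050 CPM in lin-40(yth27) animals on cco-1 RNAi and 1350 to 2120 CPM on EV, and to 402 to 3800 CPM in WT on cco-1 RNAi and 405 to 2230 CPM on EV, with replicate 1 lowest in both WT groups. The 25 germline genes summed to 2140 to 2300 CPM in lin-40(yth27) animals on cco-1 RNAi and 2070 to 2600 CPM on EV, and to 1670 to 3060 CPM in WT on cco-1 RNAi and 1960 to 2460 CPM on EV. Of these, gld-2 was called higher and glh-1 lower in WT, and none in lin-40(yth27). Intestine, muscle and neuron lists had 0 called genes in either genotype, with medians of 0.10, 0.01 and 0.02 in lin-40(yth27) and −0.18, −0.31 and 0.13 in WT. No gene of these lists was at 0 in any library. The part of stage and tissue in the values of the mitochondrial ribosomal protein genes was not tested.

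The close same-strand neighbours had fold changes centred near 0 in both genotypes. Over 38 pairs of a tested member and a tested neighbour that is no member, within 150 bases, the neighbours had a median log2 fold change of 0.01 in lin-40(yth27), with 19 above 0, and the 30 members of these pairs one of 0.28. In WT the medians were 0.06 for the neighbours and −0.06 for the members. Upstream of mrps-11, at 105 bases, lies W04D2.4, with a log2 fold change of −0.21 in lin-40(yth27) and 0.34 in WT. Upstream of mrps-14, also at 105 bases, lies nrde-2, a nuclear RNAi factor, with −0.01 and 0.53, and upstream of mrps-5, at 103 bases, lies sel-1, with −0.14 and 0.06. None of these 3 neighbours was called. Neighbouring genes share library effects, and the difference between members and neighbours was not tested.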

How the data were processed

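Poly(A) RNA of whole L4 animals was sequenced in 12 libraries. The submitters' processing notes name TopHat and RSEM. The authors deposited 1 table of estimated counts per gene, taken as RSEM expected counts from the values; their build and annotation: not given in the sources used here. Values were rounded to whole numbers, and 0 columns belonged to other samples. Genes were matched by identifier to the WBcel235 annotation (Ensembl 115), which gave lengths and coordinates. Strand of counting is not stated, and 19 members overlap exons of another gene, 6 on the same strand.

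Genes kept by filterByExpr were scaled by TMM and fitted with edgeR 4.0.16 (quasi-likelihood, R 4.3.3, limma 3.58.1) over all 12 libraries, with BH adjustment over 14867 genes. The biological coefficient of variation was 26.1%. CPM are TMM-scaled. Figures used matplotlib 3.10.9. DESeq2 1.42.0, other scalings and filters, replicate blocks and each library left out were alternatives. The code was tested on simulated data. Title numbers paired the WT libraries on both foods (correlations of same-numbered deviations 0.723, 0.588 and 0.288) but not the lin-40(yth27) ones (−0.324, −0.192 and −0.113), and the blocked fit changed no count of called members, though it moved the calls over all genes. The genotypes on EV also met this rule (0.467, 0.278 and 0.169), those on cco-1 RNAi did not (−0.376, −0.216 and −0.168).

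The members and lists were chosen with earlier results of these data known. Named members were those called, the 4 with the lowest p where fewer than 4 were called, mrps-5, and the highest and lowest level per length; from other lists, those called. mrpl-12, mrps-31, dap-3 and the neighbouring genes were named after their values were seen.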

Additional observations from a re-analysis of the deposited data

Results flagged for a closer look

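mrps-28, a small-subunit protein gene, was the 1 member with non-overlapping groups in opposite directions in the genotypes. It measured 42.4, 42.9 and 60.8 CPM in lin-40(yth27) animals on cco-1 RNAi, against 38.1, 39.9 and 38.7 CPM on EV. In WT it measured 42.2, 36.2 and 39.0 CPM on cco-1 RNAi, against 50.1, 44.7 and 50.0 CPM on EV. The difference between the log2 fold changes, lin-40(yth27) minus WT, was 0.62 (SE 0.20), with an unadjusted p of 0.00896 in edgeR's quasi-likelihood test and an adjusted p of 0.394. Without lin-40(yth27) cco-1 RNAi replicate 3, the highest library, the difference was 0.43 (edgeR adjusted p = 0.697), and with the length trend of each library removed it was 0.51 (0.555). The lin-40(yth27) log2 fold change itself was 0.18 with the length trend removed, against 0.32 without this. The same pattern, lower in WT and higher in lin-40(yth27), was seen in 1.45% of the members and 0.525% of all genes.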

How the results depend on the processing

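In WT the count of called members, 1 as reported, was 0 with upper quartile scaling, with no filter beyond 1 count, with only the 6 libraries of the comparison, with the length trend removed and at a threshold of 0.01. It ran between 0 and 1 with single libraries left out. In lin-40(yth27) the count of 2 was 0 with library totals, with the length trend removed, without lin-40(yth27) cco-1 RNAi replicate 3 together with EV replicate 1, and at 0.01. It was 1 with no filter, with the 6 libraries alone and with the length trend removed under the title-number block, and 4 with DESeq2. Over all genes DESeq2 called 271 higher and 124 lower here, against 123 and 50 in edgeR. The count of members ran between 0 and 2 with single libraries left out. The replicate block by the number in the short names, which differ from the title numbers in some libraries, gave 4 calls in WT (1 higher, 3 lower), 8 in lin-40(yth27) and 12 for the interaction, where over all genes it called 1084 higher and 1282 lower, 221 and 154, and 453 and 570. The block by title number gave 1, 2 and 0 called members and changed no count of called members. Over all genes it called 1249 genes in WT, 252 in lin-40(yth27), 1 for the interaction, 9 for the genotypes on EV and 2 on cco-1 RNAi, against 929, 173, 0, 56 and 93 without it.

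The medians moved most with library totals in place of TMM, to 0.06 in WT, 0.10 in lin-40(yth27), 0.06 for the interaction, −0.08 for the genotypes on EV and −0.01 on cco-1 RNAi. The medians of all genes then were 0.19, −0.18, −0.31, 0.16 and −0.16. The lin-40(yth27) median was 0.15 without the pair of libraries named above, whose length slopes were −0.21 and 0.13. WT cco-1 RNAi replicate 1 (0.14) and WT EV replicate 1 (0.11) had slopes close to that of the EV library and were kept. With the length trend removed the genotype medians were −0.34 on EV (−0.32 with the block) and −0.01 on cco-1 RNAi. With single libraries left out, the medians ran between −0.14 and −0.02 in WT, between 0.18 and 0.35 in lin-40(yth27), between 0.26 and 0.43 for the interaction, −0.30 and −0.19 for EV, and 0.03 and 0.24 for cco-1 RNAi. Over all alternatives the members' median less that of all genes kept its sign in each comparison, at −0.19 to −0.03, 0.16 to 0.40, 0.25 to 0.47, −0.34 to −0.19 and 0.03 to 0.23. All genes here include those of any length, whereas the members are short. The causes of lost calls were not tested. In the simulated data, 50% of genes changed 2-fold in WT on cco-1 RNAi were recovered at an adjusted p under 0.05, and 92% of those changed 4-fold. The members' changes were smaller, and changes of that size were not simulated.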
